A study of Homo sapiens with 12 samples.

Results

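The squamous lineage transcription factors TP63, SOX2, KLF4, KLF5, GRHL1, GRHL2, GRHL3, TFAP2A, TFAP2C and OVOL1 were measured in PE/CA-PJ41, an established cell line of human oral squamous cell carcinoma (OSCC). They are 10 of the 20375 genes listed for each library and were taken by gene name, though with earlier results of these data known. The 12 polyadenylated RNA libraries fall into 3 groups of 4. In the first group the cells received human plasma at 10% for 48 h, in the second they received platelet-rich plasma (PRP) at 10% for 48 h, and the third held untreated control cells. All groups are the same line, so the data describe 1 genetic background, and the labels describe no donor of the plasma or PRP. The culture time of the control cells is not stated in the labels. Nothing in them says that the 4 libraries of a group were separate cultures, so the p-values speak of the spread among these libraries only, part of which may be technical.

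Squamous epithelium is built on a small set of transcription factors. TP63 (p63) holds the basal, self-renewing state and switches on basal keratins and adhesion genes, and SOX2 is a stem cell factor that is often amplified together with TP63 in squamous carcinoma. KLF5 is a factor of proliferating basal cells, while KLF4, GRHL3 and OVOL1 act as cells differentiate and form a barrier. GRHL1 and GRHL2 are grainyhead factors that keep up desmosome and junction genes, and TFAP2A and TFAP2C (AP-2 alpha and gamma) act early to give surface ectoderm its epidermal identity.

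Levels are given in TPM, the share of transcripts, which corrects each gene's reads for the effective length of its transcripts and for the total of its library, so that levels can be set side by side between genes. Tests of differences used limma on log2(TPM + 1) over the 12517 genes that reached 1 TPM in at least 4 libraries, and all 10 factors were among them. A gene is said to have risen or fallen where its p-value, adjusted over all those genes by the Benjamini-Hochberg method, was under 0.05. The log2 changes below are on the log2(TPM + 1) scale unless reads are named, and ± beside a log2 change is the standard error.

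With plasma, SOX2 and GRHL1 rose and KLF4 and OVOL1 fell. With PRP, SOX2 and GRHL1 rose and KLF4 fell. TP63 and KLF5, the most abundant of the 10, did not pass the test in either comparison, nor did GRHL2, GRHL3, TFAP2A or TFAP2C. No factor passed between PRP and plasma. In bulk RNA, fewer cells of a type and less RNA per cell cannot be told apart. The changes that passed were small, from a fall to 0.833 of the control level for KLF4 with PRP to a 1.48-fold rise of GRHL1 with plasma.

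Against the background of all genes the number of changed factors was not high. With plasma 4 of 10 passed, while 49.3% of all 12517 genes did, 20.3% of them higher and 29.0% lower. With PRP 3 of 10 passed, against 53.1% of all genes, with 21.7% higher and 31.5% lower. Among all genes that passed, the share that fell depended on scaling: it was 58.8% for plasma and 59.2% for PRP as deposited, and 45.9% and 46.0% once each library was centred on its median. The median log2 change of the 10 factors was -0.02 with plasma and -0.03 with PRP, beside -0.05 and -0.06 over all genes. Plasma and PRP were set against the same 4 control libraries, so their results are not independent of each other.

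**Figure D1:**
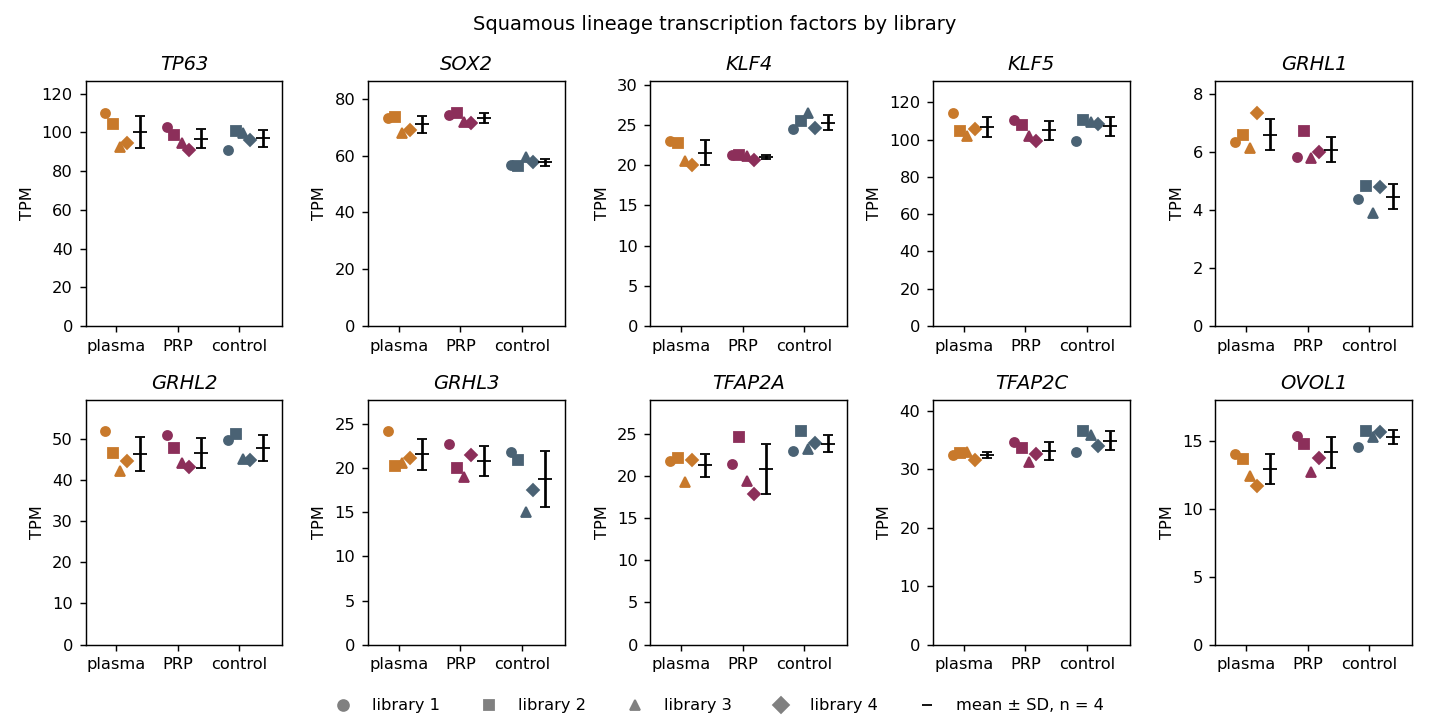
TPM of each factor (vertical axis, from 0) in the plasma, PRP and control libraries, with the mean and SD of each group (n = 4) beside the points and the library number as the symbol. SOX2 sits at 68.0 to 75.0 TPM in all treated libraries and at 56.5 to 59.6 TPM in control, GRHL1 is also higher and KLF4 lower in every treated library, and TP63 and KLF5 overlap between the groups.

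The order of levels was nearly the same in every group. KLF5 and TP63 led at 107 and 100.4 TPM with plasma, 104.9 and 96.9 TPM with PRP and 107 and 96.9 TPM in control, and their libraries overlapped within each group. SOX2 came next, followed by GRHL2 and TFAP2C, each with no overlap with its neighbours in the order. KLF4, TFAP2A and GRHL3 lay close together, near the middle of all tested genes, and overlapped in the plasma and PRP groups. OVOL1 followed, and GRHL1 was lowest at 6.59 ± 0.52 TPM with plasma, 6.07 ± 0.43 TPM with PRP and 4.46 ± 0.44 TPM in control (SD, n = 4 each). In the control group GRHL3 lay below TFAP2A without overlap and overlapped OVOL1 instead. The position among all tested genes ran in control from the 16th percentile for GRHL1 to the 87.6th for KLF5.

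The cells carried the markers expected of the line. All 10 genes of a squamous identity list, such as KRT5, KRT14 and DSG3, reached 1 TPM. Their TPM summed to 15628 to 16682 with plasma, 15982 to 17657 with PRP and 12311 to 13625 in control. KRT5 made the largest part of the sum, averaging 7645, 7677 and 4784 TPM. The markers did not move together: 3 rose and 3 fell with each treatment. Their median log2 change was -0.05 with plasma and -0.06 with PRP, as over all genes. Total estimated reads ran from 36258955 in plasma library 2 to 41976136 in PRP library 4. Libraries numbered 1 and 2 stood apart from those numbered 3 and 4 in all groups by the share of mitochondrially encoded reads, at 0.191 to 0.487% against 0.572 to 0.969%, and the labels do not say what the numbers stand for. Changes within each of these pairs of libraries are therefore given beside the results that passed.

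TP63 lies on chromosome 3 from 189631416 to 189897279 on the plus strand (GRCh38), and GENCODE lists transcripts with 5 separate starts, which give rise to the long TA and the short delta-N forms of p63. The deposited values are summed per gene, so these forms were not separated. TP63 had 110, 104, 92.5 and 94.6 TPM in plasma libraries 1 to 4, 103, 98.6, 94.7 and 91.2 TPM in PRP libraries and 90.8, 101, 99.5 and 96.3 TPM in control libraries. The groups overlapped, and in both treated groups libraries 1 and 2 were above libraries 3 and 4. The log2 change was 0.05 ± 0.06 with plasma (95% interval -0.08 to 0.17, limma adjusted p = 0.511) and -0.00 ± 0.06 with PRP (interval -0.12 to 0.12, adjusted p = 0.990). In a test on reads, limma's voom with TMM scaling, TP63 passed in both comparisons at log2 changes of 0.14 (adjusted p = 0.00669) and 0.09 (adjusted p = 0.0448), so whether TP63 counts as changed depended on the measure.

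SOX2, a gene of a single exon, lies on the same arm of chromosome 3 from 181711924 to 181714436 on the plus strand, inside the long non-coding gene SOX2-OT but with no exon in common. It had 73.3, 73.8, 68.0 and 68.9 TPM in the plasma libraries, 74.3, 75.0, 71.8 and 71.5 TPM in the PRP libraries and 56.7, 56.5, 59.6 and 57.6 TPM in the control libraries. Every treated library was above every control library. Its log2 change was 0.30 ± 0.04 with plasma (1.23-fold, limma adjusted p = 2.72e-05) and 0.34 ± 0.04 with PRP (1.27-fold, adjusted p = 6.28e-06). With plasma it was 0.37 within libraries 1 and 2 and 0.22 within libraries 3 and 4, and with PRP 0.39 and 0.29. SOX2 rested on 3205 to 4583 reads a library, and its effective length differed by less than 0.01 in log2 between the groups.

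KLF4 lies on chromosome 9 from 107484852 to 107490482 on the minus strand and encodes a zinc finger factor that drives late keratinocyte differentiation and is also one of the reprogramming factors. It had 23.0, 22.8, 20.5 and 20.0 TPM in plasma libraries, 21.2, 21.2, 21.1 and 20.6 TPM in PRP libraries and 24.4, 25.5, 26.5 and 24.6 TPM in control libraries. All 8 treated libraries were below all 4 control libraries, and the PRP libraries were the most alike, with a coefficient of variation of 1.33%. KLF4 fell by 0.22 ± 0.05 in log2 with plasma (limma adjusted p = 0.00368) and by 0.25 ± 0.05 with PRP (adjusted p = 0.00125). Within libraries 1 and 2 the change was -0.12 with plasma and -0.22 with PRP, and within libraries 3 and 4 it was -0.32 and -0.28.

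KLF5, on chromosome 13 from 73054976 to 73077542 on the plus strand, showed no such change. Its TPM was 114, 105, 102 and 105 in plasma libraries, 111, 108, 102 and 99.4 in PRP libraries and 99.3, 111, 109 and 109 in control libraries. The groups overlapped widely. In log2 it changed by -0.00 with plasma (95% interval -0.11 to 0.10, limma adjusted p = 0.946) and -0.03 with PRP (interval -0.13 to 0.08, adjusted p = 0.648), and its sign turned under median centring and in reads. KLF4 made up 16.8 ± 0.79% of the summed TPM of KLF4 and KLF5 with plasma, 16.7 ± 0.55% with PRP and 19.1 ± 0.61% in control (SD, n = 4 each).

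The grainyhead family was led by GRHL2 in every group, and GRHL1, the least abundant, was the member that passed the test on TPM. GRHL1 lies on chromosome 2 from 9951693 to 10002277 on the plus strand and regulates desmosomal cadherins in skin. It had 6.33, 6.56, 6.14 and 7.33 TPM in plasma libraries, 5.83, 6.70, 5.77 and 5.97 TPM in PRP libraries and 4.36, 4.80, 3.87 and 4.78 TPM in control libraries. No treated library overlapped the control libraries. GRHL1 rose by 0.48 ± 0.08 in log2 with plasma (1.48-fold, limma adjusted p = 0.000284) and by 0.38 ± 0.08 with PRP (1.36-fold, adjusted p = 0.00153). Within libraries 1 and 2 it was 0.42 with plasma and 0.38 with PRP, and within libraries 3 and 4 it was 0.54 and 0.37. GRHL1 rested on the fewest reads of the 10, 455 to 644 with plasma, 433 to 552 with PRP and 323 to 374 in control. PRP library 2 had the highest TPM of its group and the shortest effective length of all libraries, while its 11.8 CPM (reads as a share of the library) lay within the 11.7 to 13.2 CPM of the PRP group. In CPM too the groups did not overlap, at 12.4 to 15.4 with plasma, 11.7 to 13.2 with PRP and 7.78 to 9.31 in control. On log2(TPM + 0.1), where only the pseudocount differs, the change was 0.56 with plasma and 0.44 with PRP. In reads (voom with TMM scaling), which also differ in scaling and in the use of length, it was 0.65 and 0.54.

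GRHL2, on chromosome 8 from 101492432 to 101669726 on the plus strand, is the family member of general epithelial junction and barrier upkeep. It had 51.7, 46.4, 42.1 and 44.5 TPM in plasma libraries, 50.9, 47.7, 44.2 and 43.1 TPM in PRP libraries and 49.6, 51.0, 45.1 and 44.9 TPM in control libraries. In each group libraries 1 and 2 were above libraries 3 and 4, while the groups themselves overlapped. Its log2 change was -0.05 with plasma (95% interval -0.19 to 0.10, limma adjusted p = 0.614) and -0.04 with PRP (interval -0.19 to 0.11, adjusted p = 0.678), both positive under median centring and in reads. A non-coding gene, AP001207.3, overlaps GRHL2 exons on the opposite strand, and the sources used here do not say whether counting used strand.

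GRHL3, on chromosome 1 from 24319322 to 24364482 on the plus strand, is needed for the skin barrier and for eyelid and neural tube closure in mice. It had 24.2, 20.3, 20.7 and 21.2 TPM in plasma libraries, 22.8, 20.1, 19.0 and 21.5 TPM in PRP libraries and 21.9, 20.9, 15.0 and 17.5 TPM in control libraries. The control libraries spread the most, with a coefficient of variation of 16.8%, because libraries 3 and 4 were low, and the groups overlapped. Neither the plasma change of 0.20 ± 0.10 in log2 (limma adjusted p = 0.119) nor the PRP change of 0.15 ± 0.10 (adjusted p = 0.225) passed. Within libraries 1 and 2 it was 0.05 and 0.00, and within libraries 3 and 4 it was 0.35 and 0.30. The plasma difference passed without control replicate 1 (adjusted p = 0.0384) and after median centring (adjusted p = 0.0274), and reads passed in both comparisons (voom with TMM scaling, log2 changes 0.28 and 0.23, adjusted p = 0.0154 and 0.0368).

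Within the summed TPM of the 3 grainyhead genes, GRHL1 held 8.89 ± 0.95% with plasma, 8.29 ± 0.70% with PRP and 6.30 ± 0.59% in control (SD, n = 4 each). GRHL2 held 62.1 ± 1.24% with plasma, 63.3 ± 1.51% with PRP and 67.3 ± 2.22% in control. Every treated library had a larger GRHL1 share and a smaller GRHL2 share than every control library. GRHL3 held 29.0%, 28.4% and 26.4% on average, and its shares overlapped between the groups.

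SOX2, GRHL1 and KLF4 were the factors that passed in both comparisons, and their promoters are shown because the first pair rose and KLF4 fell. Each window holds 250 bases before and 50 after a RefSeq start (GRCh38.p14), read 5′ to 3′ on the strand of the gene. SOX2 is at chr3:181711675-181711974 on the plus strand, GRHL1 at chr2:9951443-9951742 on the plus strand and KLF4 at chr9:107489720-107490019 on the minus strand. Capitals mark matches, on either strand, to any of 8 motifs searched by their letters. They were AP-2 (GCCNNNGGC), the GC box of SP and KLF factors (GGGCGG), the KLF box CACCC, grainyhead (AACCGGTT), SOX (ACAAAG and its variant ACAATG), the TATA box (TATAAA) and OVO (CCGTTA).
SOX2: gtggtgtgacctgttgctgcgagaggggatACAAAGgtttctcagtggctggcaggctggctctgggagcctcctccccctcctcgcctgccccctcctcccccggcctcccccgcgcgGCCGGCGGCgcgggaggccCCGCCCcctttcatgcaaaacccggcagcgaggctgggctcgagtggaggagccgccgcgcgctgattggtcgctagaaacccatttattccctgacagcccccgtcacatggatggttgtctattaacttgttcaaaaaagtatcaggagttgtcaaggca
GRHL1: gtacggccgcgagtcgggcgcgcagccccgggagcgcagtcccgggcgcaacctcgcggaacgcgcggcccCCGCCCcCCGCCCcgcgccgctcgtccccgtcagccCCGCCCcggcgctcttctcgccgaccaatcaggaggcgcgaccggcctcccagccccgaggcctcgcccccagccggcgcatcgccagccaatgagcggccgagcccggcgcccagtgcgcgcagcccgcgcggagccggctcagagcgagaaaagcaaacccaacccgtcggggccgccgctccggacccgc
KLF4: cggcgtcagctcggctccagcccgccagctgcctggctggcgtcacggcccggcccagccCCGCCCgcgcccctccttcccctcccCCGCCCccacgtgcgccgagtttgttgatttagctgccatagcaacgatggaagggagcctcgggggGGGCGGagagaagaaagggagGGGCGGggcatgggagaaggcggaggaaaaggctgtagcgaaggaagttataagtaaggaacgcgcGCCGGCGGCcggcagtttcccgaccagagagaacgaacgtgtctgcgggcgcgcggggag

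The GRHL1 window was the richest in G and C, at 79.7%, and its capitals are 3 GC boxes and no other motif of the set. The SOX2 window, at 63.3% G and C, held 1 AP-2 match, 1 GC box and 1 ACAAAG. The KLF4 window, at 69.0%, held 4 GC boxes and 1 AP-2 match. No match overlapped another. These are common letters: of 35116 RefSeq promoter windows of the same length, 45.0% held a GC box, 23.2% the AP-2 letters and 16.1% ACAAAG, while the full grainyhead palindrome stood in 0.134% and in none of these 3. A match is only a run of letters and says nothing about binding, and windows were found for 7 of the 10 factors.

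**Figure D2:**
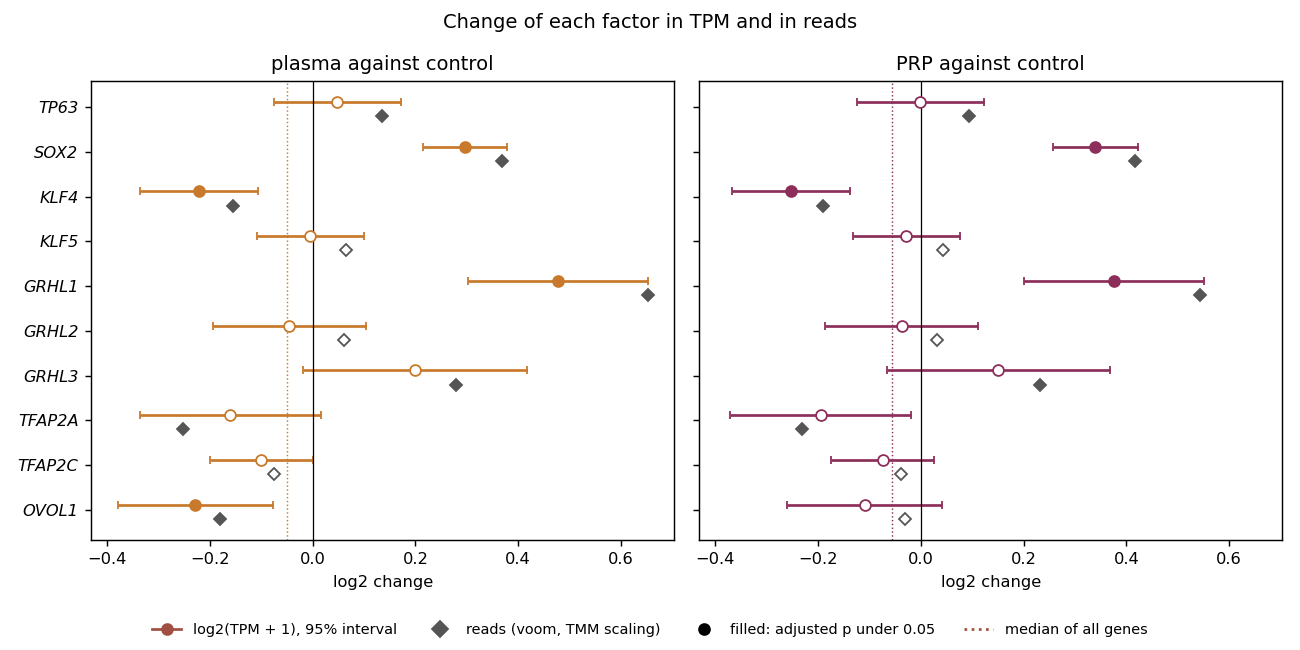
Log2 change of each factor (horizontal axis) with plasma and with PRP against control, from log2(TPM + 1) as circles with 95% intervals and from reads (voom with TMM scaling) as diamonds, filled where the adjusted p was under 0.05. SOX2, GRHL1 and KLF4 pass by both measures in both panels, OVOL1 passes with plasma, and TP63, GRHL3 and TFAP2A pass in reads alone. The dotted line is the median of all tested genes.

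The AP-2 pair sat slightly lower in the treated groups without passing the test. TFAP2A lies on chromosome 6 from 10393186 to 10419659 on the minus strand. It had 21.7, 22.2, 19.3 and 21.9 TPM in plasma libraries, 21.5, 24.7, 19.5 and 17.8 TPM in PRP libraries and 23.0, 25.3, 23.3 and 23.9 TPM in control libraries. All 4 plasma libraries were below the control libraries, while PRP library 2 lay among them. The log2 change was -0.16 ± 0.08 with plasma (limma adjusted p = 0.121) and -0.19 ± 0.08 with PRP (adjusted p = 0.0601). Without PRP replicate 2 the PRP value was -0.27 and passed (adjusted p = 0.00623), and with only the plasma and control libraries in the fit the plasma value passed (adjusted p = 0.0452). Within libraries 1 and 2 the PRP value was -0.06 and within libraries 3 and 4 it was -0.32. With a term for libraries 1 and 2 against 3 and 4 in the fit, the PRP value passed (limma adjusted p = 0.0270).

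TFAP2A gave another answer in reads. Its share of the library's reads, in CPM, was 27.0, 26.7, 25.5 and 25.8 in plasma libraries, 28.0, 28.3, 26.4 and 23.8 in PRP libraries and 31.1, 33.0, 31.3 and 32.4 in control libraries. No treated library reached the control libraries, and voom with TMM scaling put the log2 change at -0.25 in the plasma libraries (adjusted p = 0.00113) and -0.23 in the PRP libraries (adjusted p = 0.00190). The effective length, by which TPM divides the reads, also differed between the groups, and its part in the unlike answers was not tested. It was 1955, 1853, 1964 and 1743 bases in plasma libraries, 2051, 1770, 2022 and 1958 bases in PRP libraries and 2129, 2079, 2066 and 2067 bases in control libraries. The treated libraries were all shorter than the control libraries, by 0.15 in log2 with plasma and 0.10 with PRP on average. The effective length did not overlap between the groups for 7.28% of all tested genes with plasma and 8.02% with PRP, and TFAP2A was the only one of the 10 factors among them in either comparison.

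The effective length of a gene is an average over its transcripts, weighted by how many reads each was given. GENCODE lists 4 coding transcripts of TFAP2A in its basic set, 2035 to 3829 bases long and each with its own start. The 2 TFAP2A promoter windows in RefSeq are printed to show that the starts lie in unlike sequence. The first is chr6:10419610-10419909 and the second, further into the gene, chr6:10412342-10412641, both on the minus strand, with the same motifs in capitals.
TFAP2A, first window: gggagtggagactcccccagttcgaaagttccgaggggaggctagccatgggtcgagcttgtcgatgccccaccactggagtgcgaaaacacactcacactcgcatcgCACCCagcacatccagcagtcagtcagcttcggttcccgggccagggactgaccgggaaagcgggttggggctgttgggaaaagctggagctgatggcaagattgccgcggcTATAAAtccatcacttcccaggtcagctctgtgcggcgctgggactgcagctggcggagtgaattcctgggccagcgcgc
TFAP2A, second window: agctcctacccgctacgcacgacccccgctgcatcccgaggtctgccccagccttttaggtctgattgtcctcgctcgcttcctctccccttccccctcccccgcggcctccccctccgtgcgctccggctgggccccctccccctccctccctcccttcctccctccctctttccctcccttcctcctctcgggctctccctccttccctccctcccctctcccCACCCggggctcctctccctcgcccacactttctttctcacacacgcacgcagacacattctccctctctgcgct

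The first window held 1 TATA box and 1 CACCC box, and the second, with long runs of C and T, held 1 CACCC box and no TATA box. Of all windows 11.5% held the TATA letters and 59.9% the CACCC letters. The deposited tables give no value per transcript, so which starts were used in which group was not tested. The antisense genes TFAP2A-AS1 and TFAP2A-AS2 overlap its exons on the opposite strand, and without knowledge of strand their reads cannot be told apart from those of TFAP2A.

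**Figure D3:**
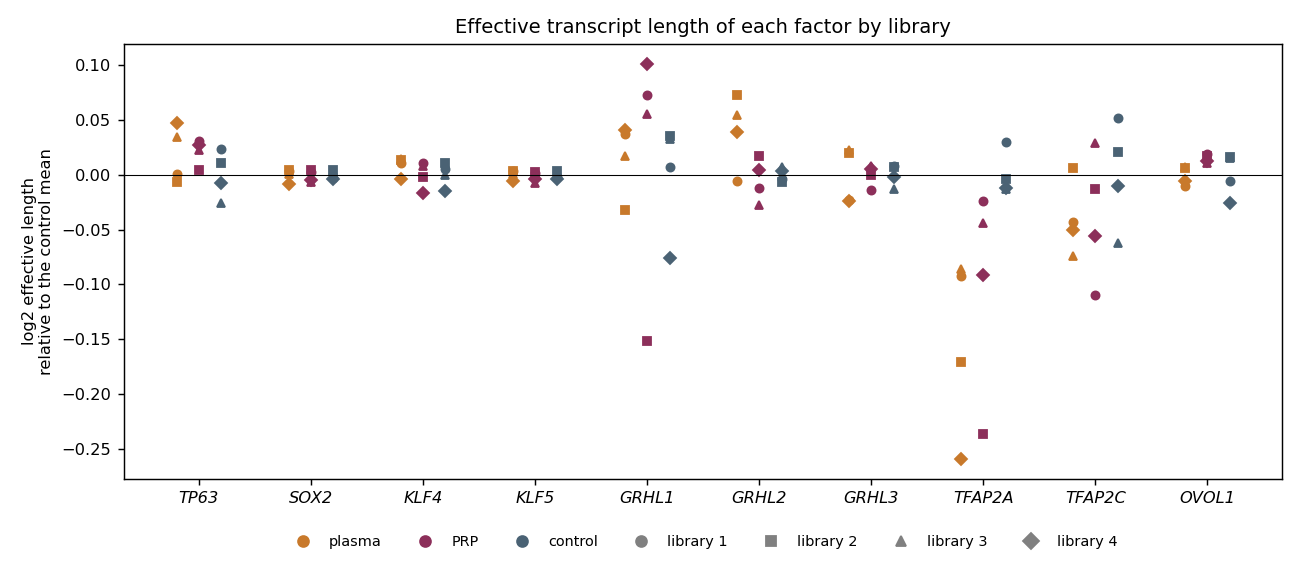
Effective transcript length of each factor in each library, as log2 relative to the mean of the control libraries (vertical axis), by group (colour) and library number (symbol). TFAP2A is the factor whose 8 treated libraries all lie below the control libraries, and SOX2, KLF4 and KLF5 stay within a narrow band around 0.

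TFAP2C, on chromosome 20 from 56629302 to 56639283 on the plus strand, is more often described in placenta, germ cells and early surface ectoderm. It had 32.4, 32.8, 32.9 and 31.6 TPM in plasma libraries, 34.7, 33.7, 31.2 and 32.7 TPM in PRP libraries and 33.0, 36.5, 35.9 and 34.0 TPM in control libraries. The plasma libraries were all just below the lowest control library, and the PRP libraries overlapped control. The log2 change was -0.10 ± 0.05 with plasma (limma adjusted p = 0.0901) and -0.07 ± 0.05 with PRP (adjusted p = 0.198). Without control replicate 1 the plasma value passed (adjusted p = 0.0477). TFAP2A held 39.6% of the summed TPM of the pair with plasma, 38.5% with PRP and 40.6% in control, with overlap between the groups.

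OVOL1, on chromosome 11 from 65787022 to 65797219 on the plus strand, is a zinc finger repressor that helps epidermal progenitors leave the cell cycle and, with OVOL2, holds down mesenchymal factors. It had 14.01, 13.7, 12.4 and 11.7 TPM in plasma libraries, 15.3, 14.8, 12.7 and 13.8 TPM in PRP libraries and 14.6, 15.7, 15.3 and 15.7 TPM in control libraries. The plasma libraries were all below control, and PRP libraries 1 and 2 lay among the control values. OVOL1 fell by 0.23 ± 0.07 in log2 with plasma (limma adjusted p = 0.0153), and the PRP value of -0.11 ± 0.07 did not pass (adjusted p = 0.208). Within libraries 1 and 2 the plasma value was -0.12 and within libraries 3 and 4 it was -0.34, and without plasma replicate 4 it no longer passed (-0.18, adjusted p = 0.0525). The non-coding gene AP001266.1 overlaps OVOL1 exons on the opposite strand. That OVOL1 passed with plasma and not with PRP does not show that the treatments differ: PRP minus plasma was 0.12 ± 0.07 (95% interval -0.03 to 0.27, adjusted p = 0.722).

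TPM values of the plasma and control libraries did not overlap for 6 of the 10 factors (SOX2, GRHL1, KLF4, OVOL1, TFAP2A and TFAP2C), against 43.9% of all tested genes. Between PRP and control there was no overlap for 3 of 10 (SOX2, GRHL1 and KLF4), against 46.8%. Asking also for an absolute log2 change of at least 0.5 left 0 of 10 factors with either treatment on the log2(TPM + 1) scale, against 10.8% of all genes with plasma and 13.2% with PRP. This count depends on the scale, since the plasma change of GRHL1 was 0.56 on log2(TPM + 0.1), 0.53 after median centring and 0.65 in reads (voom with TMM scaling), and its PRP change was 0.54 in reads, all of which passed.

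PRP was also set directly against plasma. The labels describe no donor of either, so platelets and a difference of donor or preparation cannot be told apart. None of the 10 factors passed (limma, 0 of 10 at an adjusted and also at an unadjusted p under 0.05, and 0 of 10 with voom), and 0.0639% of all genes did, or 0.0160% with an absolute log2 change of at least 0.5. No factor had PRP libraries clear of the plasma libraries in TPM (0 of 10, against 5.22% of all genes), and in effective length OVOL1 did (1 of 10, against 2.01%). The log2 differences, PRP minus plasma, ran from -0.10 for GRHL1 (95% interval -0.28 to 0.07) to 0.12 for OVOL1. For SOX2 the difference was 0.04 (interval -0.04 to 0.13) and for KLF4 -0.03 (interval -0.15 to 0.08). For TP63 it was -0.05 (interval -0.17 to 0.07). The widest interval was that of GRHL3, from -0.27 to 0.17, and differences inside these intervals are not excluded by the 4 libraries a group.

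Relatives of the 10 factors in the same protein families had a median absolute log2 change of 0.32 with plasma and 0.31 with PRP, beside 0.18 and 0.13 for the 10 factors and 0.18 and 0.20 for all genes. Of 29 such paralogues 21 could be tested, of which 6 were higher and 9 lower in plasma libraries, and 7 higher and 9 lower in PRP libraries. KLF10, a TGF-beta responsive repressor, fell to 39.1 TPM with plasma and 38.4 TPM with PRP, against 61.7 TPM in control. Among other regulators of epidermis and squamous mucosa, 28 of 30 were tested. Of these, 10 were higher and 4 lower in plasma libraries, 8 higher and 6 lower in PRP libraries. Beside both lists, 20.3% of all genes were higher and 29.0% lower with plasma, and 21.7% and 31.5% with PRP. ELF3, an ETS factor of differentiating epithelium, rose to 349.7 TPM with plasma and 336 TPM with PRP, against 161 TPM in control (log2 changes 1.12 ± 0.05 and 1.06 ± 0.05).

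Genes described as p63 targets in basal keratinocytes changed in both directions, while TP63 in TPM did not pass. Of 32 tested, plasma libraries had 10 higher and 11 lower than control and PRP libraries 13 higher and 10 lower, beside 20.3% higher and 29.0% lower over all genes with plasma and 21.7% and 31.5% with PRP. The list medians were -0.06 and -0.05, close to those of all genes. The basal keratin KRT5 averaged 7645 TPM with plasma, 7677 TPM with PRP and 4784 TPM in control (log2 change 0.68 ± 0.05 each time). S100A2, a calcium-binding p63 target, was the gene of these lists that also differed between the treatments, at 2655 TPM with PRP, 2011 TPM with plasma and 1470 TPM in control. PRP minus plasma was 0.40 ± 0.05 in log2 with no overlap of libraries (limma adjusted p = 0.00898).

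Genes described as grainyhead targets of the epithelial barrier had list medians of 0.13 with plasma and 0.12 with PRP, beside -0.05 and -0.06 for all genes. Of 23 tested, 8 were higher and 2 lower in plasma libraries, and 8 higher and 3 lower in PRP libraries, while in either direction 49.3% of all genes passed with plasma and 53.1% with PRP. ARHGEF19, an exchange factor of planar polarity and a textbook target of GRHL3 in mice, averaged 34.3 TPM with plasma, 34.2 TPM with PRP and 23.1 TPM in control. CLDN4, of the same list, went the other way, at 144.1 TPM with plasma, 139.9 TPM with PRP and 158.5 TPM in control. Beside the fall of KLF4, a list of KLF4 and keratinocyte differentiation genes had medians of 0.14 and 0.48. Of its 25 tested genes, 10 were higher and 5 lower in plasma libraries, 12 higher and 6 lower in PRP libraries. Over all genes 20.3% were higher and 29.0% lower with plasma, and 21.7% and 31.5% with PRP. Some genes of the list, such as S100A8 and SBSN, were below 1 TPM in all control libraries. They passed the filter through treated libraries, so the filter favours rises among such genes. KRT13, the keratin of non-cornified oral mucosa, averaged 571 TPM with plasma, 554 TPM with PRP and 284 TPM in control, while KRT17, a keratin of activated epithelium, fell to 1793 TPM with plasma and 1647 TPM with PRP, against 2696 TPM in control. Keratin genes have close copies among which reads can be split, so values of single members are less certain.

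Mesenchymal genes, some of which OVOL and grainyhead factors repress, reached the level for a test in 7 of 14 cases. Of these, 3 were higher and 1 lower in plasma libraries, 2 higher and 1 lower in PRP libraries. The shares over all genes were 20.3% higher and 29.0% lower with plasma, and 21.7% and 31.5% with PRP. The repressors ZEB1 and ZEB2 stayed at or below 0.17 and 0.36 TPM in every library. VIM (vimentin), a filament of mesenchymal cells, rose to 63.6 TPM with plasma and 67.5 TPM with PRP, against 45.8 TPM in control. TGFBI, a secreted matrix protein induced by TGF-beta, rose to 350.6 TPM with plasma and 347 TPM with PRP, against 274 TPM in control. SNAI2 (SLUG), also found in basal keratinocytes, fell to 58.3 TPM with plasma and 53.7 TPM with PRP, against 65.4 TPM in control. Of 21 factors of columnar, neural and other lineages, 7 were at 0 in all libraries, such as SOX10 and CDX1, and 7 were tested, of which 2 were higher and 3 lower with each treatment. FOXA1 averaged 18.7 TPM with plasma, 15.5 TPM with PRP and 11.9 TPM in control. PAX8 averaged 10.3, 10.1 and 14.1 TPM, so not all factors of other lineages were absent.

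**Figure D4:**
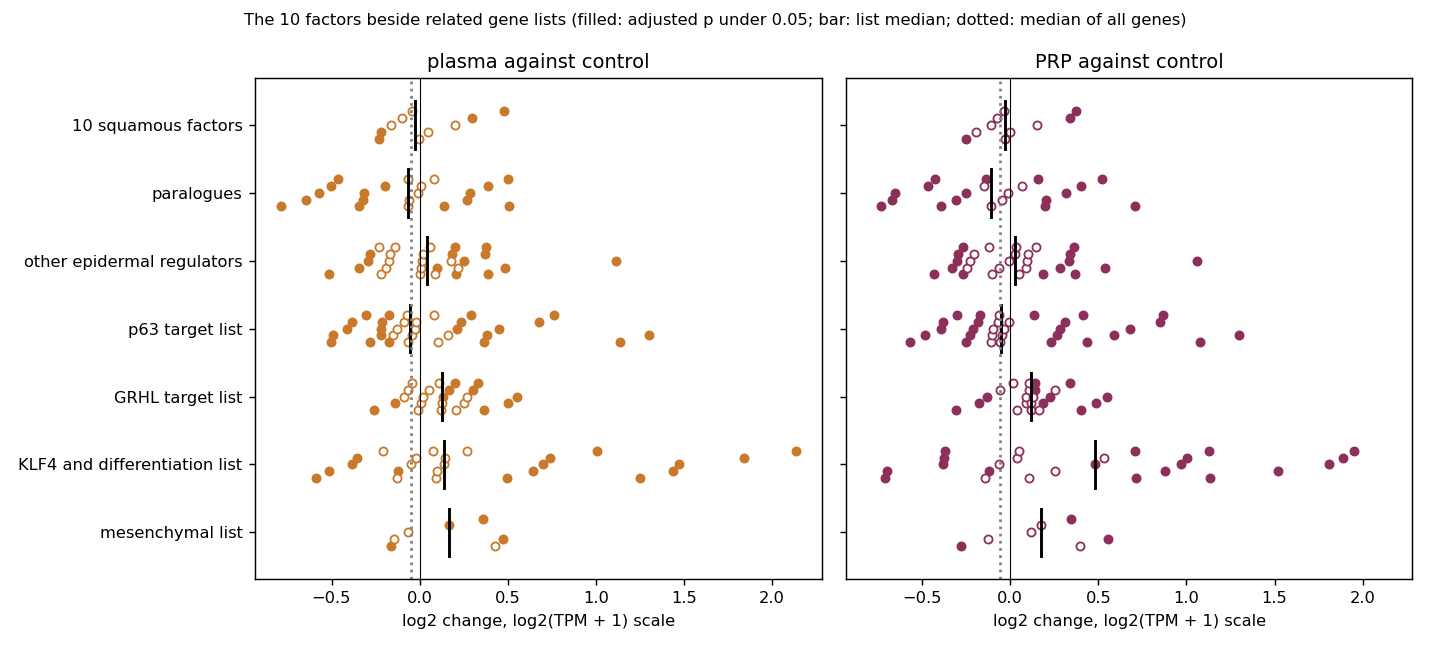
Log2 change of each tested gene (horizontal axis) in the 10 factors and 6 related lists, with plasma and with PRP against control, filled where the adjusted p was under 0.05, with a bar at each list's median and a dotted line at the median of all genes. The 10 factors span -0.23 to 0.48 with plasma and -0.25 to 0.38 with PRP. The paralogues, the p63 target list and the differentiation list span more but hold more tested genes, at 21, 32 and 25. The mesenchymal list, with 7 tested genes, spans -0.16 to 0.47 with plasma and -0.28 to 0.56 with PRP.

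Blood cells in plasma or PRP could carry RNA of their own, so their markers were read beside these results, and their part in the changes of the 10 factors was not tested. The 18 leukocyte markers summed to 6.64 to 9.44 TPM with plasma, 7.88 to 10.4 TPM with PRP and 5.09 to 6.37 TPM in control. MS4A1, FCGR3A, NKG7 and TYROBP were at 0 in every library. PTPRC was at most 0.77 TPM in control, 0.14 TPM with plasma and 0.10 TPM with PRP. CD14 rose to 4.89 TPM with plasma and 5.49 TPM with PRP, against 1.79 TPM in control. The 12 platelet markers summed to 1.48 to 2.54 TPM with plasma, 1.29 to 2.65 TPM with PRP and 2.05 to 3.20 TPM in control, with PF4, PF4V1, GP9 and TREML1 at 0 and PPBP at most 0.10 TPM. MPIG6B of this list averaged 1.28 TPM with plasma, 1.23 TPM with PRP and 1.85 TPM in control. The 8 erythroid markers summed to at most 2.94 TPM in any library, with HBB, HBD and ALAS2 at 0. HBA1 reached 1.92 TPM with plasma, 2.83 TPM with PRP and 2.44 TPM in control. The 9 fibroblast markers summed to 20.0 to 26.1 TPM with plasma, 21.1 to 22.6 TPM with PRP and 21.8 to 32.5 TPM in control. Among them LUM averaged 3.87 TPM with plasma, 3.42 TPM with PRP and 8.40 TPM in control. Of the squamous identity list, with 10 genes tested, 3 rose and 3 fell with each treatment. Among all genes 20.3% rose and 29.0% fell with plasma, and 21.7% and 31.5% with PRP.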

How the data were processed

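Messenger RNA was measured in 12 libraries of PE/CA-PJ41 cells, 4 with plasma, 4 with PRP and 4 untreated, grouped by the treatment in the labels. Polyadenylated RNA was purified with RNeasy and made into libraries with the Watchmaker mRNA kit, per the labels' protocols. The submitters' processing notes name Salmon and hg38. Tool versions, the transcript set and the use of strand are not given in the sources used here. Each deposited table holds TPM, estimated counts of reads and effective lengths of 20375 genes, per the file headers, with decimal commas. Dividing the estimated counts by the effective lengths gave back the deposited TPM for all 20375 genes in all 12 libraries, within 1% plus 0.01 TPM.

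The 10 factors and 12 further gene lists were chosen with earlier results of these data known. With R 4.3.3 and limma 3.58.1, the limma-trend method was applied to log2(TPM + 1) of the 12517 genes at or above 1 TPM in 4 or more libraries. All 12 libraries entered with a term for each group, leaving 9 residual degrees of freedom. P-values were two-sided and adjusted by Benjamini-Hochberg over all tested genes, at 0.05, in each of 3 comparisons. The pseudocount of 1 understates the change of low genes. TPM moves with the effective length and with the rest of the library, so estimated counts were also tested with limma's voom, scaled by TMM or by the median of ratios. The functions were tested on simulated data. Alternatives changed the pseudocount, filter, scaling, libraries, a term for replicate numbers and a threshold on the size of change. From each list at most 4 genes with the smallest adjusted p in a comparison with control were to be named, plus any that differed between PRP and plasma. Genes outside this rule are named too, such as examples of the squamous identity list and genes at or near 0. Those of the last paragraph are marked as named after their values were seen. A rule to name genes most like a factor needed a called absolute log2 change of at least 0.5 and named none. Some genes of the lists are not reported here.

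Estimated reads per library were 36258955 to 41976136. In the shallowest library, 0 reads allow up to 0.0827 CPM, from 3 reads, a limit that leaves out all but counting error. Replicates differed by more than sampling noise in every pair. Positions are from GENCODE and promoter windows from RefSeq.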

Additional observations from a re-analysis of the deposited data

Results flagged for a closer look

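Over the 30 groups of 4 libraries (10 factors in 3 groups), 1 held a library far from its fellows, while chance alone gives about 1 in 20, or 1.5. In TFAP2A, plasma library 3 had 19.3 TPM, against 21.7 to 22.2 TPM in the other plasma libraries. Its effective length of 1964 bases was the longest of the plasma group, against 1743 to 1955 bases in the other plasma libraries. Without plasma replicate 3 the plasma change of TFAP2A did not pass either. Its part in the result was otherwise not tested.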

How the results depend on the processing

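SOX2, GRHL1 and KLF4 kept their direction and their side of the threshold in both comparisons with control under all 22 alternatives that kept the threshold on adjusted p alone. With an absolute log2 change of at least 0.5 on log2(TPM + 1) also asked for, 0 factors were called with plasma and 0 with PRP, in place of 4 and 3, while GRHL1 passed 0.5 on some other scales. On reads, voom called 7 with plasma and 6 with PRP under both TMM and median-of-ratios scaling, adding TP63, GRHL3 and TFAP2A. More genes passed in reads generally. Of all 12517 genes, voom called 7083 with plasma and 7523 with PRP under TMM, and 7095 and 7543 under median-of-ratios scaling. On TPM 6173 and 6652 genes were called. The cause was not tested. Leaving out each library in turn gave 3 to 6 calls with plasma, 3 to 4 with PRP and 0 between PRP and plasma. With a replicate block, plasma had 5 calls (GRHL3 added), PRP 4 (TFAP2A added) and PRP against plasma 0. Replicate numbers were not taken as a pairing, since same-numbered libraries correlated at -0.067 to 0.168 between plasma and control, 0.028 to 0.152 between PRP and control and 0.051 to 0.304 between PRP and plasma. A term for libraries 1 and 2 against 3 and 4, chosen after seeing the data, gave 4, 4 and 0 calls, with TFAP2A added for PRP.

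Changes of sign were found only in values that had not passed the main test on TPM. TP63 with PRP, just below 0 in the main fit, passed as a rise in reads. Its voom adjusted p was 0.0448 with TMM and 0.0495 with median-of-ratios scaling. Median centring turned KLF5 to 0.052 and GRHL2 to 0.011 with plasma, and TP63 to 0.063, KLF5 to 0.036 and GRHL2 to 0.027 with PRP. Reads scaled by TMM gave KLF5 0.064 and GRHL2 0.062 with plasma, TP63 0.093, KLF5 0.043 and GRHL2 0.031 with PRP, and GRHL2 -0.031 and TFAP2A 0.021 for PRP minus plasma. Reads scaled by the median of ratios gave KLF5 0.060 and GRHL2 0.058 with plasma, TP63 0.091, KLF5 0.041 and GRHL2 0.029 with PRP, and GRHL2 -0.029 and TFAP2A 0.023 for PRP minus plasma. Without the 3 libraries numbered 1, TP63 was -0.027 with plasma. With each library left out in turn, KLF5 ran from -0.039 to 0.016 with plasma and TP63 from -0.032 to 0.027 with PRP. For PRP minus plasma the ranges were -0.049 to 0.010 for KLF5, -0.036 to 0.063 for GRHL2, -0.090 to 0.0060 for GRHL3 and -0.115 to 0.034 for TFAP2A. All 10 factors passed the filter, so the exact test planned for genes below it had nothing to test.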

Other observations

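Some regulators that work beside the 10 factors, named after their values were seen, also changed. PITX1, a homeodomain factor of oral epithelium, averaged 59.0 TPM with plasma, 58.1 TPM with PRP and 44.8 TPM in control (log2 changes 0.39 ± 0.07 and 0.36 ± 0.07 SE, limma adjusted p = 0.000577 and 0.000781). PAX9, a paired box factor of oral and oesophageal mucosa, fell to 34.3 TPM with plasma and 34.5 TPM with PRP, against 42.0 TPM in control. ZNF750, a p63 target that acts with KLF4, averaged 8.35 TPM with plasma, 8.11 TPM with PRP and 9.75 TPM in control and did not pass (adjusted p = 0.103 and 0.0503).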
